A study of Mus musculus with 6 samples.

Results

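Enzymes and a chaperone that shape collagen were followed in synovial fibroblasts (SFs), the connective tissue cells of the joint lining, cultured with and without amisulpride, a blocker of dopamine and serotonin receptors used against psychosis. The members are 10 genes chosen by name from the 49548 genes of the deposited table: the lysyl oxidases Lox, Loxl1, Loxl2, Loxl3 and Loxl4, the lysyl hydroxylases Plod1 and Plod2, the prolyl 4-hydroxylase subunits P4ha1 and P4ha2, and Serpinh1, which encodes the collagen chaperone Hsp47. The SFs were primary cultures from ankle joints of 8-week-old mice on a CBA C57BL/6J background. All 6 cultures carried a human TNF transgene (hTNFtg), which causes arthritis, and had been depleted of CD45+ cells at passage 1. In the treated group 3 cultures had received 500 μM amisulpride for 48 hours, and the 3 cultures of the other group are labelled as not treated, although the study's methods name a vehicle control. They are called untreated here. The methods describe 3 biological replicates, without saying whether a culture came from a single mouse or a pool, so p-values measure the spread between these cultures. No wild-type SFs enter the comparison, and neither group says what the drug does in cells without the transgene.

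Collagen chains are modified and folded in the endoplasmic reticulum before they leave the cell. There, prolyl 4-hydroxylases stabilise the triple helix, lysyl hydroxylases prepare lysines for later sugar attachment and crosslinking, and Hsp47 holds the folded helix during transport. Outside the cell, copper-dependent lysyl oxidases turn lysines into reactive aldehydes that join neighbouring collagen or elastin molecules, the step that stiffens connective tissue in fibrosis.

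Transcripts were read near their 3′ end, and each value is a normalised count, a read count that the authors scaled by library and rounded to a whole number. Libraries held approximately 2.52 to 4.71 M reads, and 3 reads, the upper limit that an observed count of 0 leaves for the true level, equalled 2.50 to 5.37 normalised counts. Amisulpride replicate 3 stood apart from the other libraries: it had the fewest reads and lay at 73.9 on the leading principal component (37.1% of the variance), where the other 5 lay between -38.2 and 10.4. It was the highest of the 6 libraries for 24.8% of all genes tested. Values without it are therefore given beside results that it moved. In a check of the cell label, all 10 fibroblast markers passed the filter on low values. Their summed levels were 15732 to 23298 normalised counts in untreated and 16578 to 19720 in treated libraries. Vim, named after its values were seen, gave the largest part of each sum. It lay at 7404 to 13732 normalised counts untreated and at 8279 to 13718 treated. All 11 myeloid markers passed as well, at summed levels of 2764 to 5494 untreated and 2685 to 5039 treated. Lyz2, named after its values were seen, gave the largest part of each sum, at 1733 to 3046 normalised counts untreated and 1394 to 3287 treated. The leukocyte marker Ptprc, which encodes CD45, was among the lowest, at 12 to 38 untreated and 5 to 23 treated. None of 7 endothelial markers passed, and 2 of 7 muscle and mural cell markers and 2 of 5 chondrocyte markers did. At the study's thresholds, given with the members below, 2 of the 11 myeloid markers and 1 mural marker were lower in treated SFs, and none of the 10 fibroblast markers passed, beside 2.69% of all genes higher and 3.01% lower. Without amisulpride replicate 3 the lubricin gene Prg4, a fibroblast marker of the joint lining, was lower at -1.21 in log2 fold change (-0.92 with all libraries), and the macrophage gene Adgre1 was higher at 1.04. With the replicate number as a block the fibroblast marker Lum (-1.07) and Ptprc (-1.16) were lower. These 4 were named after their values were seen. The part of other cells in the members' values was not tested. In bulk RNA, fewer cells of a type and less RNA per cell cannot be told apart.

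All 10 members passed the filter of 10 normalised counts in at least 3 libraries, as did 12614 genes in all, and these were compared with limma on log2(normalised count + 1). All 5 lysyl oxidases had a negative log2 fold change, amisulpride over untreated, and the hydroxylases and Serpinh1 all had a positive one, so that 5 members lay on each side of 0, beside 50.1% of all genes above it and 49.9% below. Without amisulpride replicate 3, 3 of these signs turned, for Loxl4, P4ha1 and P4ha2, which left 4 members above 0 and 6 below. The study's thresholds were an unadjusted p under 0.05 and a log2 fold change of 1 or more in either direction. Plod2 alone of the 10 members passed these thresholds (10%), beside 5.70% of all genes tested. An unadjusted p under 0.05 was reached by 4 of 10 members, 2 higher (Plod1, Plod2) and 2 lower (Loxl1, Loxl3), beside 10.9% of all genes (5.11% higher and 5.77% lower). No member had an adjusted p under 0.05, beside 0.285% of all genes, or 36. The 3 treated values lay wholly outside the 3 untreated ones for 6 of 10 members, 3 higher and 3 lower, beside 16.5% of all genes (7.80% and 8.66%). The median log2 fold change was 0.02 over the members and 0.00 over all genes. Because the members divide evenly between both directions, this median describes neither direction.

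**Figure D1:**
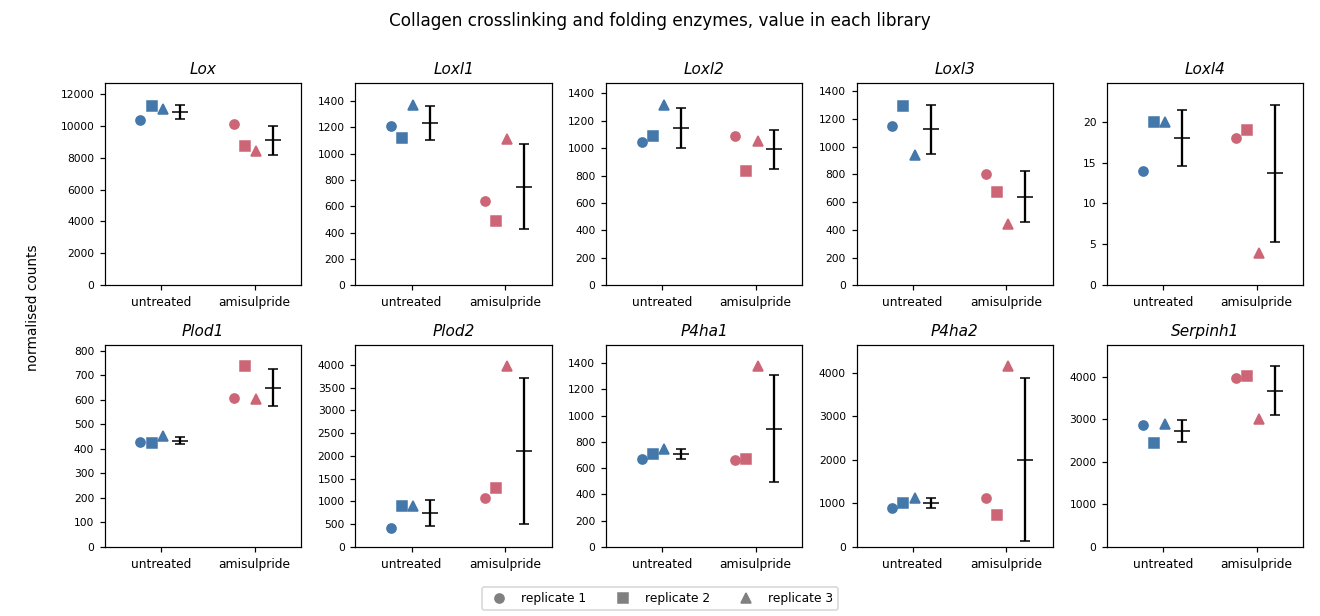
Normalised counts of the 10 members in each library (1 panel per gene, axis from 0), untreated in blue and amisulpride in red, with the symbol giving the replicate and the bars the mean ± SD of 3 libraries. Treated values of Lox, Loxl1 and Loxl3 lie below all untreated ones, those of Plod1, Plod2 and Serpinh1 above them, and replicate 3 stands far above the other treated libraries for Plod2, P4ha1 and P4ha2.

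Among the lysyl oxidases, Loxl1 and Loxl3 showed the largest negative differences with an unadjusted p under 0.05. Loxl1 (ENSMUSG00000032334, mm10 chr9:58287738-58313186, minus strand) encodes an oxidase best known for elastic fibre assembly. It lay at 1207, 1119 and 1370 normalised counts untreated and at 642, 490 and 1111 with amisulpride. Every treated library lay below every untreated one, and amisulpride replicate 3 came close to the untreated range while the other treated libraries were far from it. The mean was 1232 ± 127 untreated and 748 ± 324 treated (SD, n = 3), at -0.80 ± 0.30 (SE) in log2 fold change, with a p of 0.0231 and an adjusted p of 0.350 in limma. Without amisulpride replicate 3 it was -1.13, past the study thresholds, with a p of 0.000483 in limma and an adjusted p just under 0.05. Without amisulpride replicate 2 it was -0.54 with a p of 0.117 in limma, and p was also above 0.05 when untreated replicate 3 (0.0802) or amisulpride replicate 1 (0.0668) was left out.

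Loxl3 (ENSMUSG00000000693, mm10 chr6:83034173-83052562, plus strand) encodes an oxidase needed for palate and spine development. Values were 1148, 1291 and 940 normalised counts untreated, against 805, 673 and 440 with amisulpride. The groups did not overlap, and the gap between the lowest untreated and the highest treated library was smaller than the SD of either group. The mean was 1126 ± 177 untreated and 639 ± 185 treated (SD, n = 3). This was a log2 difference of -0.85 ± 0.28 (SE), with a p of 0.0108 and an adjusted p of 0.262 in limma. It was -0.60 without amisulpride replicate 3 and -1.04, past the study thresholds, without amisulpride replicate 1. Loxl3 overlaps Htra2 on the opposite strand, which lay at 56 to 168 normalised counts. Whether the authors counted reads by strand is not given in the sources used here, so reads of the pair may be mixed.

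Lox (ENSMUSG00000024529) encodes the founding lysyl oxidase, the main crosslinker of fibrillar collagen. It lay at 10366, 11212 and 11036 normalised counts untreated and at 10096, 8724 and 8412 treated. The groups did not overlap, though amisulpride replicate 1 was only just below the lowest untreated library. Its log2 fold change of -0.26 had a 95% interval of -0.85 to 0.32 and a p of 0.345 in limma. Loxl2 (ENSMUSG00000034205, mm10 chr14:69609068-69695834, plus strand) encodes an oxidase studied in fibrosis and tumour stroma, including of basement membrane collagen. Its values of 1045, 1086 and 1317 normalised counts untreated and 1090, 831 and 1056 treated overlapped. Their difference on the log2 scale was -0.21 (95% interval -0.74 to 0.31) with a p of 0.389 in limma.

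Loxl4 (ENSMUSG00000025185, mm10 chr19:42593982-42612813, minus strand), another secreted oxidase of the family, was near the limit of detection. It lay at 14, 20 and 20 normalised counts untreated and at 18, 19 and 4 treated. The last value, in amisulpride replicate 3, was under that library's floor of 5.37, and the other treated values were within the untreated range. The log2 fold change was -0.60 (95% interval -1.89 to 0.69) with all libraries and 0.054 without amisulpride replicate 3, so its sign rested on that library.

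Of the lysyl hydroxylases, Plod2 (ENSMUSG00000032374, mm10 chr9:92542223-92608428, plus strand) encodes the enzyme that modifies the telopeptides at the ends of collagen chains, which leads to the hydroxylysine-derived crosslinks typical of fibrotic tissue. Plod2 lay at 409, 900 and 907 normalised counts untreated and at 1084, 1301 and 3965 treated. All treated libraries were above all untreated ones, but untreated replicate 1 was low for its group and amisulpride replicate 3 was 3.05 times the next library. The mean was 739 ± 286 untreated and 2117 ± 1604 treated (SD, n = 3). The log2 fold change was 1.35 ± 0.47 (SE), or 2.56-fold on this scale, with a p of 0.0145 and an adjusted p of 0.289 in limma.

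Libraries of the same replicate number deviated together from their group means, so they were also taken as pairs. The labels give replicate numbers without stating a pairing, which was thus inferred from these same data. Within the pairs, the log2 ratio of Plod2 in treated over untreated SFs was 1.40, 0.53 and 2.13, so it was above 0 in 3 of 3. With the replicate as a block in limma, Plod2 had an adjusted p of 0.0221, and it was the only member whose call at an adjusted p of 0.05 changed. The share of all genes with an adjusted p under 0.05 in that fit was 2.08%. The size of the difference depended on single libraries. Without amisulpride replicate 3 it was 0.77 with an adjusted p of 0.353 in limma. Without untreated replicate 1 it was 0.97 with an unadjusted p of 0.0829 in limma, so both fell short of the study thresholds.

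Plod1 (ENSMUSG00000019055, mm10 chr4:147909753-147936767, minus strand) encodes lysyl hydroxylase 1, which acts on lysines within the helix. It lay at 426, 424 and 451 normalised counts untreated and at 606, 736 and 605 with amisulpride. The untreated libraries were nearly alike and every treated library was well above them, replicate 3 included. The mean was 434 ± 15.0 untreated and 649 ± 75.3 treated (SD, n = 3). In log2 fold change this was 0.57 ± 0.23 (SE), at a p of 0.0266 and an adjusted p of 0.365 in limma, and it was 0.62 without amisulpride replicate 3. Scaling all libraries to the same sum gave 0.50 with a p of 0.0599 in limma, and leaving out untreated replicate 2 or 3 gave a p of 0.0719 or 0.0570. It was 0.0950 when amisulpride replicate 2 was left out.

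Both prolyl 4-hydroxylase subunits were highest in amisulpride replicate 3. P4ha1 (ENSMUSG00000019916, mm10 chr10:59323296-59373304, plus strand), the main catalytic subunit in most cells, lay at 666, 707 and 747 normalised counts untreated and at 659, 672 and 1374 treated. P4ha2 (ENSMUSG00000018906, mm10 chr11:54100095-54131665, plus strand), the second catalytic subunit, lay at 896, 1015 and 1126 untreated and at 1130, 743 and 4146 treated. For P4ha1, amisulpride replicate 1 was just below the untreated range and replicate 2 within it. For P4ha2, replicate 1 was just above the untreated range and replicate 2 below it. Amisulpride replicate 3 was 1.84 times the next library for P4ha1 and 3.67 times for P4ha2. The log2 fold change was 0.26 (95% interval -0.40 to 0.93) for P4ha1 and 0.59 (-0.51 to 1.68) for P4ha2, with a p of 0.401 and 0.263 in limma. Without that library both differences turned below 0, to -0.085 and -0.14. Without amisulpride replicate 2, P4ha2 was at 1.10 with a p of 0.0395 in limma, past the study thresholds.

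Serpinh1 (ENSMUSG00000070436, mm10 chr7:99345376-99353239, minus strand) lay at 2868, 2440 and 2892 normalised counts untreated and at 3979, 4033 and 3021 with amisulpride. The groups did not overlap, although replicate 3, highest for the prolyl hydroxylases, was here the lowest treated library and close to the untreated range. The mean was 2733 ± 254 untreated and 3678 ± 569 treated (SD, n = 3). On the log2 scale the difference was 0.42 ± 0.25 (SE) with a p of 0.123 in limma. It was 0.56 with a p of 0.0400 in limma without amisulpride replicate 3.

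**Figure D2:**
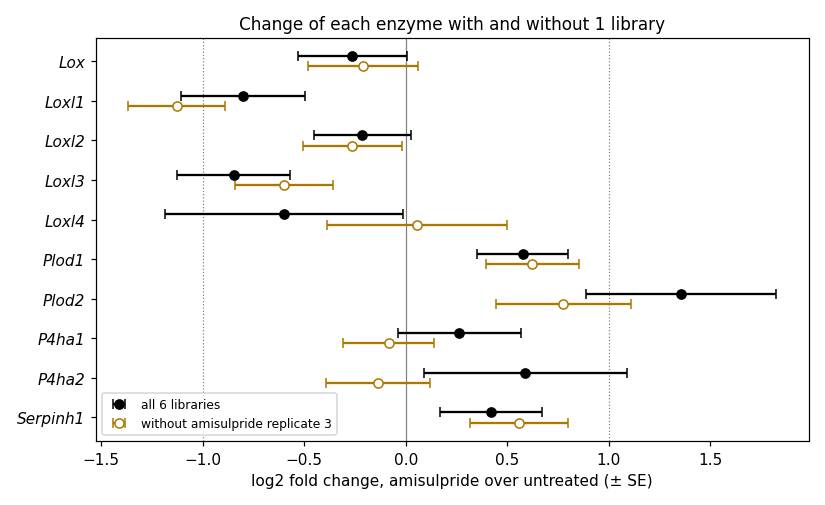
Log2 fold change of each member, amisulpride over untreated, with its SE (x axis), from all 6 libraries (black) and without amisulpride replicate 3 (open, ochre); dotted lines mark the study's limit of 1 in either direction. Loxl1 moves from -0.80 to -1.13 and Plod2 from 1.35 to 0.77, and P4ha1, P4ha2 and Loxl4 cross 0.

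Members induced through hypoxia-inducible factor (HIF) in other cells include Lox, Plod2, P4ha1 and P4ha2. Therefore 17 further HIF targets were read in the same libraries. By direction, 9 had a positive and 8 a negative log2 fold change, with a median of 0.18, or -0.10 without amisulpride replicate 3, beside 0.00 for all genes. Only Ndrg1, a stress-responsive gene, was past the study thresholds, or 1 of 17, beside 5.70% of all genes tested. It lay at 182, 281 and 285 normalised counts untreated and at 513, 764 and 918 treated, without overlap. Its log2 fold change was 1.54 ± 0.29 (SE), and its adjusted p was 0.0611 in limma and 0.0030 with the replicate block. Of the others, Higd1a, a mitochondrial protein gene, was at 0.71 and Egln3, an oxygen-sensing prolyl hydroxylase gene, at -0.71, with an adjusted p of 0.251 and 0.427 in limma. Egln3 was at -0.45 without amisulpride replicate 3.

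Amisulpride replicate 3 was the highest of the 6 libraries for 10 of the 17 HIF targets and for 3 of the 10 members, beside 24.8% of all genes. It was the lowest of the 6 for 3 targets, Egln3, Vegfa (467 normalised counts) and Adm (9160). Among the members it was the lowest for Lox (8412), Loxl3 (440) and Loxl4 (4, under the floor). Ldha, which encodes a glycolytic enzyme and was picked after its values were seen, lay at 4522, 3335 and 3272 normalised counts untreated and at 2886, 2305 and 7036 treated. The treated libraries were on both sides of the untreated range, with replicate 3 alone above it. The 10 targets and Plod2, P4ha1 and P4ha2 were counted for being highest in this library, so their meeting there follows from the count. The other targets were highest in other libraries. The part of HIF in the members' values was not tested.

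**Figure D3:**
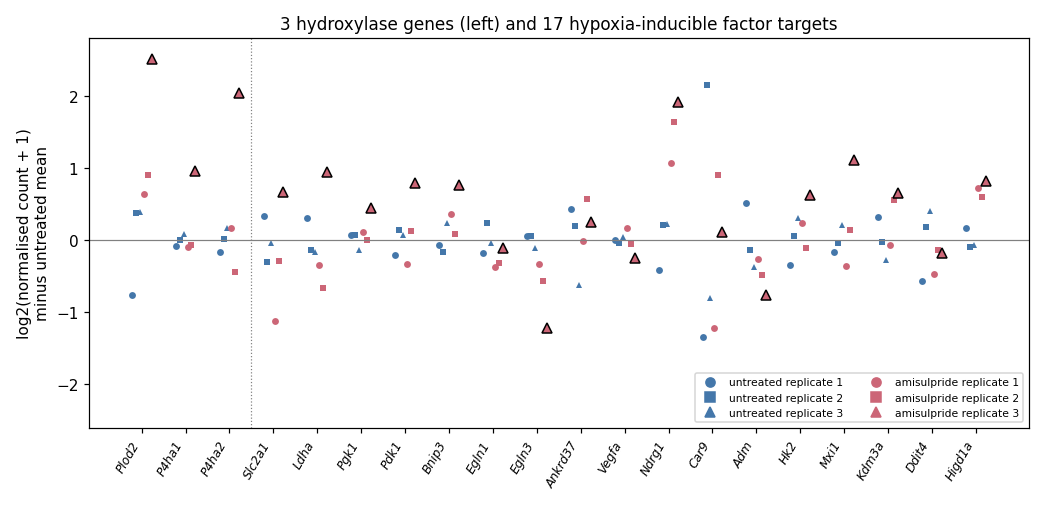
Difference of each library from the untreated mean on the log2(normalised count + 1) scale (y axis) for 3 hydroxylase genes, left of the dotted line, and 17 HIF targets, with amisulpride replicate 3 outlined. Replicate 3 is at the top for Plod2, P4ha1, P4ha2 and 10 of the 17 targets, among them Ldha at 7036 normalised counts, and at the bottom for Egln3, Vegfa and Adm.

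Start sites of the members were read for the letters ACGTG, a form of the core of the hypoxia-response element through which HIF acts. The other form, GCGTG, was not counted. RefSeq promoters of GRCm38.p6, from 250 bases before to 50 after the start site, were matched for 5 of 10 members (Loxl4, Plod1, P4ha1, P4ha2 and Serpinh1). Plod2, Lox, Loxl1, Loxl2 and Loxl3 had no matched promoter and were not read. Counting both strands, with overlapping matches counted separately, 3 of these 5 held the letters, as did 19.6% of 32851 promoters of the same length. With the start site at position 0, the match began at -16 in P4ha1, at -78 and 11 in P4ha2 and at -171 in Serpinh1. Over all libraries their log2 fold changes were 0.26, 0.59 and 0.42. The 3 sequences are shown 5′ to 3′ on the strand of the gene, with ACGTG or its reverse complement CACGT in capitals. They lie at chr10:59323046-59323345 (plus strand), chr11:54100674-54100973 (plus strand) and chr7:99353190-99353489 (minus strand). A match describes the letters and not a bound site.
P4ha1: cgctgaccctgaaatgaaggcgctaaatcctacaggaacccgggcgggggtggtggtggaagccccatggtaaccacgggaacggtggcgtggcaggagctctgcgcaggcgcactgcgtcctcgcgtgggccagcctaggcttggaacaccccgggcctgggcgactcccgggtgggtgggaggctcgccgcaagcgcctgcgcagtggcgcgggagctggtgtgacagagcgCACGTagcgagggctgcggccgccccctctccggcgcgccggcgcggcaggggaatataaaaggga
P4ha2: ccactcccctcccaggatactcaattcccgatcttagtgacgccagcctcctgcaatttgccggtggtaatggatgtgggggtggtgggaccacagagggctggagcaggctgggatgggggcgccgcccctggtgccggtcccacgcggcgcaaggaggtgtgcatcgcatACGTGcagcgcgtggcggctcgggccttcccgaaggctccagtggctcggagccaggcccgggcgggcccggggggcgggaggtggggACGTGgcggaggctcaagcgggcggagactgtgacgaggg
Serpinh1: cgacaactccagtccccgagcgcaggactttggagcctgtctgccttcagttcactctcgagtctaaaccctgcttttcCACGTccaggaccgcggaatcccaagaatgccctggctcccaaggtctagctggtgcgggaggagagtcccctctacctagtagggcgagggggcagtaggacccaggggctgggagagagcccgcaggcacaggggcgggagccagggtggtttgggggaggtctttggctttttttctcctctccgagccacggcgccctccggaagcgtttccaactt

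The promoters of Plod1 and Loxl4, with log2 fold changes of 0.57 and -0.60, held no ACGTG on either strand. GCGTG was not counted in any promoter. Amisulpride replicate 3 was the highest library for P4ha1 and P4ha2 and the lowest treated one for Serpinh1. Whether HIF acts on any of these promoters was not tested.

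Other genes that modify and fold collagen were read from a list of 15, of which 13 were tested. Here 8 had a positive and 5 a negative log2 fold change, with a median of 0.04 (0.03 without amisulpride replicate 3), and the study thresholds were passed by 2 upwards and 1 downwards, beside 2.69% and 3.01% of all genes. Ero1a (listed as Ero1l), whose product reoxidises the disulphide isomerase that also serves as the second subunit of prolyl 4-hydroxylase, rose from 625, 656 and 726 normalised counts to 1751, 1850 and 1714. No treated library came near the untreated ones, and replicate 3 did not stand out. The mean rose from 669 ± 51.7 to 1772 ± 70.3 (SD, n = 3). In limma the log2 fold change was 1.41 ± 0.22 (SE), at an adjusted p of 0.0277. Over the 13 other ways of processing the data tried here, its log2 fold change stayed between 1.33 and 1.47, but the adjusted p was 0.0773 to 0.169 when any single library other than amisulpride replicate 3 was left out.

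Ppib encodes cyclophilin B, a prolyl isomerase that acts on procollagen with Crtap and prolyl 3-hydroxylase 1. It lay at 579, 983 and 1167 normalised counts untreated and at 1691, 2238 and 1730 treated, without overlap. Its mean was 910 ± 301 untreated and 1886 ± 305 treated (SD, n = 3), at 1.10 ± 0.30 (SE) in log2 fold change, with an adjusted p of 0.172 in limma and of 0.0403 with the replicate block. The value was under the limit of 1 when untreated replicate 1 (0.80) or amisulpride replicate 2 (0.97) was left out. P3h4, a partner of lysyl hydroxylase 1, lay at 1069, 745 and 828 normalised counts untreated and at 492, 364 and 292 treated. All treated values were far below the untreated ones, at -1.22 ± 0.27 (SE) in log2 fold change, and an adjusted p of 0.0925 in limma, or 0.0148 with the replicate block. So Plod1 and P3h4, whose products work together, had differences of opposite sign, 0.57 and -1.22, in the same libraries.

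The remaining lysyl hydroxylase gene, Plod3, whose product also transfers sugars to hydroxylysine, did not pass the study thresholds. It lay at 1003, 1098 and 1207 normalised counts untreated and at 775, 569 and 644 treated, without overlap, at a log2 fold change of -0.74 ± 0.24 (SE), adjusted p 0.250 in limma. It was named after its values were seen, to complete its family: Plod1 and Plod2 had positive differences and Plod3 a negative one. P4hb, the shared second subunit of the prolyl 4-hydroxylases, lay at 3186, 3907 and 4039 normalised counts untreated and at 4453, 4636 and 4347 treated. These groups did not overlap either, but the log2 fold change was only 0.28 with a p of 0.284 in limma. P4hb was likewise named outside the rule, for its place beside P4ha1 and P4ha2.

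**Figure D4:**
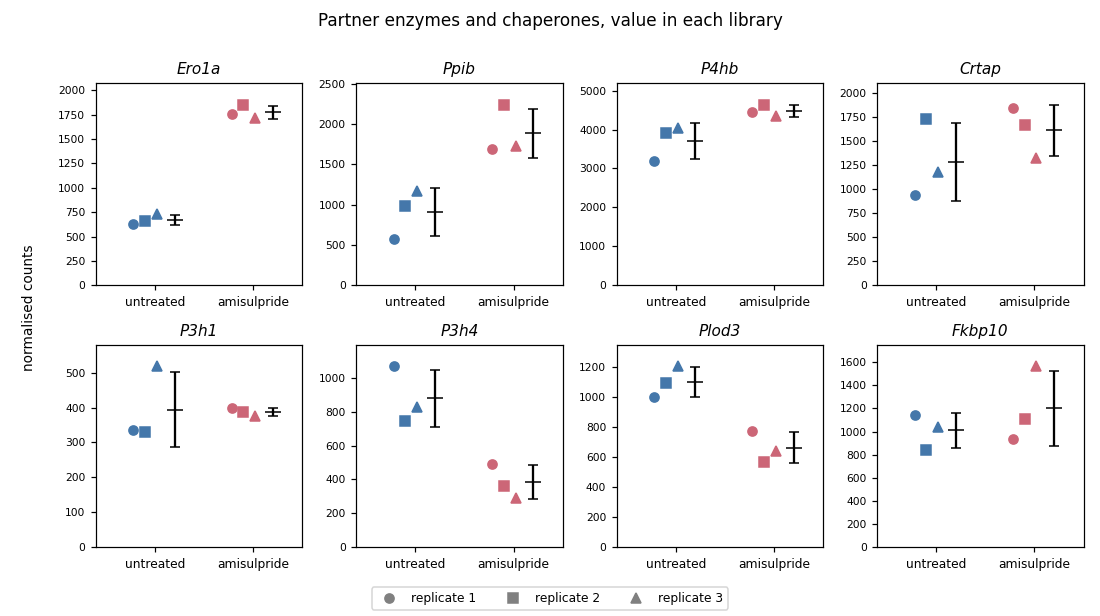
Normalised counts of 8 genes whose products work with the members (1 panel per gene, axis from 0), untreated in blue and amisulpride in red, symbol by replicate, with bars for the mean ± SD of 3 libraries. Treated values of Ero1a, Ppib and P4hb lie above and those of P3h4 and Plod3 below all untreated ones, and those of Crtap, P3h1 and Fkbp10 overlap.

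The collagens on which these enzymes act were varied among themselves. Of 10 fibrillar collagen and elastin genes, 7 were tested, 5 with a positive and 2 with a negative log2 fold change, at a median of 0.46, or 0.11 without amisulpride replicate 3, which was the highest of 6 for 4 of the 7. Col1a1, a chain of type I collagen, lay at 10814, 15684 and 23007 normalised counts untreated and at 17537, 17397 and 35599 treated. The groups overlapped, and its log2 fold change of 0.49 ± 0.40 (SE) had a p of 0.239 in limma. Col1a2, the partner chain, and Col3a1, of type III collagen, were both at 0.71, with an adjusted p of 0.487 and 0.581 in limma. Col1a1 was at 0.15, Col1a2 at 0.60 and Col3a1 at 0.39 without amisulpride replicate 3. At the study thresholds 1 of the 7 passed, beside 5.70% of all genes tested. It was Col5a3, a minor chain of type V collagen, which fell from 1337, 867 and 1481 normalised counts to 374, 300 and 310. This was -1.87 ± 0.27 (SE) in log2 fold change, at an adjusted p of 0.0156 in limma, and the treated libraries, replicate 3 included, lay close together. The difference was -1.72 to -2.10 when 1 library was left out, with an adjusted p of 0.0507 to 0.167 in limma except without amisulpride replicate 3 (0.0091).

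To set the enzymes against their main substrate, each member was divided by the geometric mean of Col1a1 and Col1a2 in the same library. As 1 was first added to every count, this ratio is nearly free of the scaling between libraries, except for low genes such as Loxl4. Lower in every treated than in every untreated library were 2 of 10 ratios, those of Loxl1 and Loxl2, and none was higher, beside 19.2% and 0.698% of all genes tested. The log2 ratio of Loxl1 was -2.99, -3.60 and -3.72 untreated and -4.55, -5.34 and -4.64 treated, a difference of -1.40. For Loxl2 it was -3.20, -3.64 and -3.78 untreated and -3.78, -4.57 and -4.72 treated, with the first treated value only just under the lowest untreated one. That difference was -0.82. Both had a p of 0.1 in a two-sided exact permutation test, the smallest that 3 against 3 libraries allow, and the lowest Benjamini-Hochberg value over the 10 ratios was 0.333.

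All 5 lysyl oxidases had a lower mean ratio to type I collagen in treated SFs, by log2 differences of -0.87 for Lox, -1.45 for Loxl3 and -1.20 for Loxl4 beside the former pair. Plod2 was at 0.75, P4ha1 at -0.34, Serpinh1 at -0.18, Plod1 at -0.03 and P4ha2 at -0.01, each with overlapping groups. The number of ratios without overlap was 2 to 6 when any 1 library was left out. Leaving out untreated replicate 3 gave 6 and amisulpride replicate 1 gave 5, all lower, while replicate 2 of either group gave 3, 2 lower and 1 higher. Groups with fewer libraries lie apart more easily, and the share of all genes was not computed for these settings. These counts therefore say nothing particular about the members. Without amisulpride replicate 3 the difference was -0.32 for Loxl4, whose value of 4 there was under the floor, and 0.40 for Plod2.

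Within pairs of the same replicate number, a comparison added after the data were seen, the ratio was lower with amisulpride in 3 of 3 pairs for 5 of 10 members, the 5 lysyl oxidases, beside 59.9% of all genes tested. It was higher in 3 of 3 pairs for none of them, beside 2.52%. For Lox the pair differences were -0.69, -0.91 and -1.01 on the log2 scale, and for Loxl3 -1.16, -1.48 and -1.71. The other 5 members went both ways, Plod2 at 0.76, -0.013 and 1.51. Since 19.2% of all genes also had a ratio that was lower without overlap, and 59.9% a lower one in each pair, a lower ratio was not particular to lysyl oxidases.

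**Figure D5:**
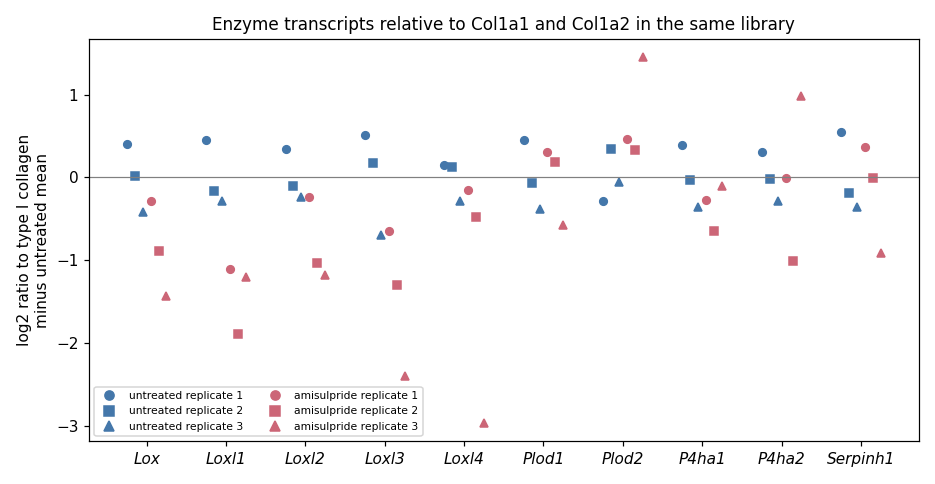
Log2 ratio of each member to type I collagen (geometric mean of Col1a1 and Col1a2) in each library, minus the untreated mean of that gene (y axis), untreated in blue and amisulpride in red, symbol by replicate. Treated values of Loxl1 and Loxl2 lie below all untreated ones, those of Plod2 overlap with replicate 3 highest, and the low Loxl4 point comes from a value of 4 normalised counts.

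Procollagen also has to be exported and trimmed. Of 15 genes for export and processing, 13 were tested, 6 with a positive and 7 with a negative log2 fold change, at a median of -0.15, or -0.03 without amisulpride replicate 3. At the study thresholds 1 was lower, beside 3.01% of all genes, and without that library 2 were, beside 3.32%. With all libraries it was Adamts14, a procollagen N-proteinase gene, with 36, 22 and 73 normalised counts untreated and 3, 7 and 36 treated. The groups met at 36, and the log2 fold change of -1.91 ± 0.74 (SE) had an adjusted p of 0.357 in limma. Its unadjusted p rose above 0.05 without untreated replicate 1 or 3 or amisulpride replicate 1 or 2, to 0.0612 or more in limma. Bmp1, which encodes the procollagen C-proteinase and also activates pro-lysyl oxidase, lay at 1663, 1782 and 1589 normalised counts untreated and at 1275, 1013 and 956 treated. These groups did not overlap, and the log2 fold change was -0.64 ± 0.24 (SE), with a p of 0.0191 and an adjusted p of 0.326 in limma. Pcolce2, an enhancer of that C-proteinase, was at -0.82 with an adjusted p of 0.465 in limma, and at -1.05, past the study thresholds, without amisulpride replicate 3 (unadjusted p of 0.0168 in limma).

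Lysyl oxidases need copper and the hydroxylases need ascorbate. Of 7 genes for the supply of either, 5 were tested and none passed the study thresholds, with a median log2 fold change of -0.09. The copper importer Slc31a1 lay at 207, 212 and 189 normalised counts untreated and at 152, 102 and 106 treated. It was lower in all 3 treated libraries, by -0.77 ± 0.26 (SE) on the log2 scale, adjusted p 0.273 in limma. The ascorbate transporter Slc23a2 was at -0.32 and the copper transporter Slc31a2 at 0.34, with an adjusted p of 0.751 and 0.799 in limma. They were at -0.058 and 0.68 without amisulpride replicate 3.

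TGF-beta, a cytokine that induces several members in fibroblasts, was read through 12 target genes. Of these, 5 had a positive and 7 a negative log2 fold change, at a median of -0.32. At the study thresholds 1 was higher and 4 were lower, beside 2.69% and 3.01% of all genes. The median was -0.61 without amisulpride replicate 3, and 0 were then higher and 3 lower. Ccn2 (listed as Ctgf), a matricellular growth factor gene, lay at 11976, 9403 and 10616 normalised counts untreated and at 15297, 19468 and 40012 treated, or 1.11 in log2 fold change, adjusted p 0.281 in limma. As with Plod2, replicate 3 was far above the other treated libraries, and without it the difference was 0.70. The contractile genes Acta2, Tagln and Cnn1 were at -1.43, -1.81 and -4.09, with an adjusted p of 0.225, 0.0761 and 0.0652 in limma and of 0.0142, 0.0014 and 0.0002 with the replicate block. For Cnn1 the value of 1 normalised count in amisulpride replicate 2 was under that library's floor, so its fold change depends on the added 1. Tgfbi, a secreted matrix protein gene, was at -1.10, at -0.73 without amisulpride replicate 3 and at -0.83 when untreated replicate 1 was left out. Leaving out amisulpride replicate 2 put Acta2 at -0.93. Targets of TGF-beta had both signs, with more of them lower than higher at the study thresholds. Their part in the members' values was not tested.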

How the data were processed

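SFs were profiled by 3′ mRNA sequencing (QuantSeq, Ion Proton) after selection of RNA with an integrity number above 7. Per the study's methods and the submitters' processing notes, the authors aligned reads to mm10 with TopHat2 and Bowtie2, counted them per gene with GenomicRanges, and normalised and tested them with DESeq through metaseqr; versions were not stated. The deposited values used are a score, read counts that the authors scaled by library and rounded. Another 12 columns of per-library values and the authors' own fold changes and p-values were not used.

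Depth was estimated from the spacing of low values, which reflects single reads. The estimate for untreated replicate 1 (4.01 M reads) is uncertain. Floors cover counting error only, and the 95% intervals come from the spread between cultures.

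Genes with at least 10 normalised counts in at least 3 of 6 libraries were tested with limma 3.58.1 in R 4.3.3 (two-sided, treatment only, trend of variance with mean, prior degrees of freedom 7.31) on log2(normalised count + 1), a scale that understates changes of low genes. The Benjamini-Hochberg adjustment ran over 12614 genes. The script was tested on simulated data. Same-numbered libraries correlated in their deviations from group means (0.229, 0.240 and 0.201; other pairs -0.149 to -0.0777), so the number was also fitted as a block. Alternatives were a pseudocount of 5, no filter, a filter of 50, 2 other scalings, library weights, and leaving out each library; the comparison of collagen ratios within pairs was added after seeing the data. Every member is described, and of each list those past the study thresholds or the 3 with the lowest p, with exceptions named. Members and lists were chosen with earlier results of these data known. Coordinates are from the GENCODE annotation of GRCm38 (mm10).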

Additional observations from a re-analysis of the deposited data

How the results depend on the processing

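The number of genes past the study thresholds was 719, and 563 to 1000 when 1 library was left out; it was 1313 without the filter and 331 with the filter of 50. At an adjusted p under 0.05 in limma, 36 genes became 0 to 120 when 1 library was left out. The 2 counts of 0, without untreated replicate 2 and without untreated replicate 3, stood beside 1083 and 911 genes at an unadjusted p under 0.05, and the 120 came without amisulpride replicate 3. That number was 57 with a pseudocount of 5, 57 without the filter, 66 after quantile normalisation, 195 with library weights and 263 with the replicate block. Members past the thresholds numbered 0 (without untreated replicate 1) to 2 (without amisulpride replicate 1 or 2) when 1 library was left out (4.57% to 8.11% of all genes). Members with an unadjusted p under 0.05 in limma numbered 2 (without untreated replicate 3) to 5 (without amisulpride replicate 3). The share of all genes in those fits was 7.35% and 12.7%. The 2 collagen ratios without overlap became 2 to 6 when 1 library was left out, where the share of all genes was not computed.

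When 1 library was left out, the log2 fold change ranged from -0.95 to 0.054 for Loxl4, from -0.085 to 0.44 for P4ha1 and from -0.14 to 1.10 for P4ha2, with the sign turning for all 3 without amisulpride replicate 3. Likewise the log2 difference of the ratio to type I collagen ranged from -0.22 to 0.25 for Plod1, from -0.51 to 0.49 for P4ha2 and from -0.46 to 0.18 for Serpinh1. It turned without untreated replicate 1 in all 3 (0.20, 0.14 and 0.09), without amisulpride replicate 3 for Plod1 and Serpinh1, and without amisulpride replicate 2 for P4ha2. Plod2 was at 0.84 with library weights, where Loxl1 was at -1.02. At an adjusted p of 0.05 the replicate block changed the call of Plod2, Ppib, P3h4, Ndrg1, Acta2, Tagln and Cnn1 and of no other gene named in the report. Loxl4 was not tested with the filter of 50. The cause of these shifts was not tested. Depth bears most on Loxl4, whose values of 4 to 20 normalised counts lay near the floors of 2.50 to 5.37.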
